A study of Sus scrofa with 24 samples.

Results

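ABP1, FAXDC2 and BTN3A2 are 3 of the 10739 named genes tested on a pig expression array. They were chosen because their signal was lower in jejunum that holds a Peyer's patch than in jejunum without one, and are described here in those 2 tissues and in liver and spleen. ABP1 is the array's name for diamine oxidase, an older symbol of AOC1. The FAXDC2 probe carries only a gene number in the scanner files, and RefSeq gives that number the symbol FAXDC2. The name BTN3A2 rests on the scanner files alone, and whether that probe measures the pig counterpart of human BTN3A2 was not tested. Each of the 3 genes had 1 probe among the 60305 of the array, so no second probe of a gene could be set beside it. All 3 probes passed the filter on dim probes, as did 42650 probes in all.

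The study measured RNA in 4 tissues of the same 6 pigs, to set their expression profiles side by side. Each animal gave 1 array per tissue, for 24 arrays and n = 6 in every tissue. The animals, numbered 68, 69, 70, 71, 73 and 75, were crossbred piglets weaned at day 28 and kept on free feed and water to an age of 10 weeks, with no treatment. The groups are called Jejunum (a stretch with no patch), Peyer (a stretch with a patch), Liver and Spleen. The samples are whole tissue pieces, so fewer cells of a type and less RNA per cell cannot be told apart. A level is the log2 signal of a probe minus the 75th percentile of its array, so that 0 is at that percentile and a difference of 1 is 2-fold.

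Diamine oxidase is a copper-containing enzyme that breaks down histamine and the polyamine putrescine, and in the gut it is made by mature enterocytes of the villus. FAXDC2 is a membrane protein of the fatty acid hydroxylase superfamily, whose other members act on sterols and lipids in the endoplasmic reticulum. BTN3A2 belongs to the butyrophilins, membrane proteins related to the B7 family of T cell ligands. In human, the butyrophilin 3A proteins take part in the sensing of phosphorylated metabolites by gamma delta T cells, and butyrophilin-like proteins of the gut epithelium act on intraepithelial lymphocytes.

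All values of a gene come from a single 60-base probe, and the 3 probes are shown because the results rest on these letters alone. They are printed 5′ to 3′ in lower case as the scanner files give them, and no base is singled out.

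ABP1: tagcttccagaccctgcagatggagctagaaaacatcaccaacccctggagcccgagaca

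FAXDC2: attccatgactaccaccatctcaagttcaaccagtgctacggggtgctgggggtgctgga

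BTN3A2: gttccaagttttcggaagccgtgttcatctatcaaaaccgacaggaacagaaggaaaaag

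The ABP1 and FAXDC2 probes had a GC content of 55%, above the upper quartile of 45% over all probes of the array. The BTN3A2 probe had 43.3%, near the array's median of 41.7%. Each probe could be read without a stop codon in at least 1 of the 3 forward frames, as could 80.3% of all probes, and BTN3A2 could in all 3. None of the 3 shared a stretch of 20 bases with another probe of the array.

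The tissue labels were checked on marker lists. The mean level of 8 hepatocyte genes lay between 8.10 and 8.50 on the Liver arrays and between -5.27 and -0.86 on the other arrays. The mean of 9 B cell genes lay between 1.79 and 2.12 on 5 Peyer arrays, and the Peyer array of animal 71 stood apart at -1.11, with the Jejunum arrays between -3.51 and -3.15. Over all probes that array had r = 0.992 with the Jejunum array of its own animal and r between 0.948 and 0.962 with the other Peyer arrays. Of the spleen list only CD163, HMOX1, VCAM1 and MADCAM1 were measured, and TLX1, NKX2-5 and SPIC were not analysed here. The scanner called 60.4% to 75.6% of probes well above background per array, and precision is limited by the 6 arrays of a tissue. The 75th percentile itself ran from 877 to 2262 on the Peyer arrays and from 681 to 1001 on Jejunum. Because of it the median named gene was 0.12 lower in Peyer than in Jejunum after scaling and 0.60 higher before it, and all differences below are relative to that percentile.

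ABP1, the diamine oxidase gene, was highest in Jejunum, where its lowest, median and highest levels were 2.31, 2.56 and 3.17. In Peyer it ran from -0.89 through a median of -0.25 to 2.10. The Spleen levels were -4.22, -2.70 and -1.43 in the same order, and the Liver levels were -5.49, -4.90 and -4.32. The order was therefore Jejunum, Peyer, Spleen, Liver, and no neighbouring pair in it overlapped after scaling. Only 1 of 6 Liver arrays and 5 of 6 Spleen arrays gave a signal well above background, so ABP1 in Liver was measured at the edge of detection. The Spleen signal of animal 71, the one not above background, was 14.8 before scaling, within the Liver range of 10.4 to 22.2. The mean level was 0.08 ± 1.08 (SD, n = 6) in Peyer and 2.62 ± 0.34 (SD, n = 6) in Jejunum. The spread in Peyer came with animal 71, whose value was the highest, and without it the SD was 0.47 (n = 5).

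FAXDC2 was well above background on all 24 arrays. Its levels in Jejunum were 0.20 at the lowest, 0.87 at the median and 1.18 at the highest. In Peyer they were -2.72, -1.81 and -0.24, and in Liver -2.60, -2.18 and -1.58. Peyer and Liver overlapped, with a Peyer level above that of Liver in 5 of 6 animals and a mean difference of 0.48 ± 0.34 (SE). Spleen was lowest at -4.26, -3.87 and -2.67, and its 6 levels lay below every Liver level. After scaling, the gene thus had a Jejunum level that stood clear of 3 lower tissues, of which Peyer and Liver did not differ beyond their spread. Before scaling Peyer and Liver did not overlap, with signals of 289 to 740 in Peyer and 77.3 to 150 in Liver.

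BTN3A2 was measured well above background on the 12 gut arrays and on none of the Liver and Spleen arrays. Its Jejunum levels were -0.65, -0.33 and 0.20 (lowest, median, highest), and its Peyer levels -3.92, -2.51 and -1.26. On the Liver and Spleen arrays its processed signal was between 3.03 and 5.21, compared with 149 or more in the gut, so no order can be given to those tissues. Against the dimmest signals called above background on the same arrays, Jejunum was at least 26.6-fold above Liver and at least 37.6-fold above Spleen. Peyer was at least 5.39-fold above Liver and at least 7.61-fold above Spleen. Such a bound takes the lowest well-measured signal of each dim array in place of the gene's own.

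**Figure D1:**
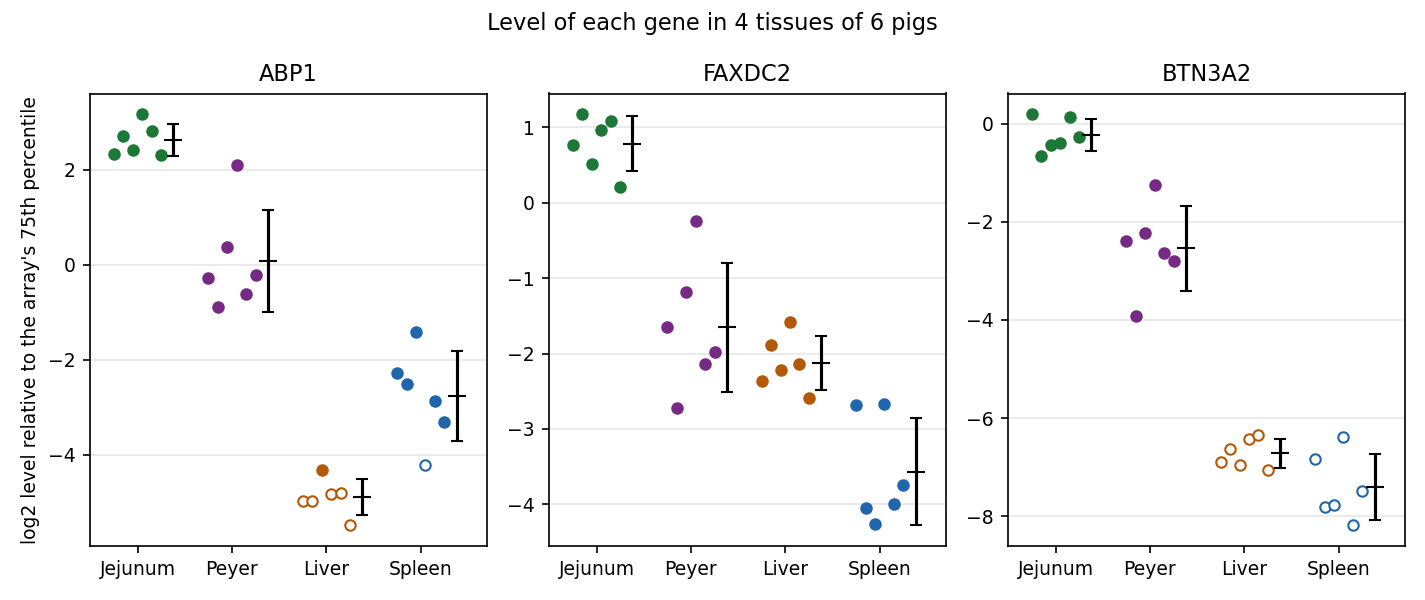
Level of ABP1, FAXDC2 and BTN3A2 (y axis, log2 relative to the 75th percentile of the array) in 4 tissues. Each point is 1 of 6 pigs, open points were not well above background, and bars are the mean and SD; each gene has its highest levels in Jejunum, and BTN3A2 was measured above background in the 2 gut tissues and in neither Liver nor Spleen.

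The members were picked on the difference between Peyer and Jejunum, so it is given without a test. The level in Peyer was below that in Jejunum in 6 of 6 animals for each gene, and the ranges of the 2 tissues did not overlap. Over all named genes, 5.8% had Peyer wholly below Jejunum, and 7.22% were called lower at an adjusted p under 0.05 and 2-fold, shares that are given as background to a choice made on this difference. The mean difference was -2.55 ± 0.42 (SE of the fit) for ABP1, 5.84-fold lower. For FAXDC2 it was -2.44 ± 0.34, 5.41-fold lower. For BTN3A2 it was -2.30 ± 0.33, 4.94-fold lower. The 3 differences were close in size, and each lay within the 95% interval of the others, which for ABP1 ran from -3.41 to -1.69.

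Among the 575 genes that were called lower, measured on all 12 gut arrays and lower in 6 of 6 animals, the 3 ranked at places 2, 3 and 5. Among all 10739 named genes, with none of these conditions, they ranked at places 5, 8 and 11. CCND1, the cell cycle regulator cyclin D1, was first at -3.50 and MYH11, the smooth muscle myosin heavy chain, lay at place 4 of the 575 with -2.32. The genes just below BTN3A2 were KIAA1671 at -2.30, the vitamin D receptor VDR at -2.21, the ectonucleotidase ENTPD8 at -2.21, OGDHL at -2.19 and the amino acid transporter SLC6A19 at -2.17. There was no gap between BTN3A2 and the genes that follow it.

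After scaling, the size of the difference put the 6 animals in the same order for all 3 genes (69, 73, 68, 75, 70 and 71, from largest to smallest), which were read on the same arrays. It was smallest in animal 71, at -1.07 for ABP1, -1.21 for FAXDC2 and -0.86 for BTN3A2. It was largest in animal 69, at -3.60, -3.89 and -3.28. That order held only after scaling: the 75th percentile of animal 69 was 2262 in Peyer and 693.2 in Jejunum, and on unscaled signals its differences were -1.89, -2.19 and -1.57. The largest unscaled differences were those of animal 73 for ABP1 (-2.53) and FAXDC2 (-2.33) and of animal 68 for BTN3A2 (-2.11), while animals 70 and 71 kept the smallest for each gene. Slide 5, which held animals 70 and 71, gave -1.56 for ABP1, -1.45 for FAXDC2 and -1.33 for BTN3A2. Slides 4 and 6 gave differences between -3.15 and -2.66 for the 3 genes. Without the Peyer array of animal 71 the means were -2.95, -2.72 and -2.56, so the difference did not rest on that array.

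**Figure D2:**
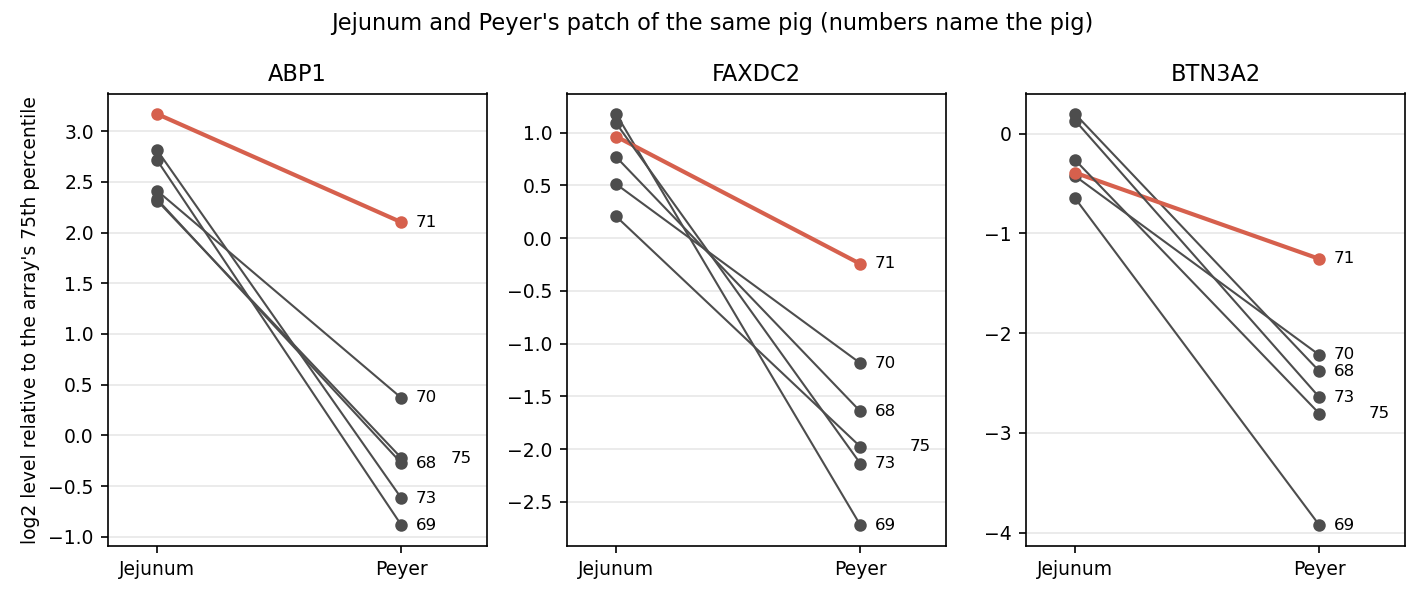
Jejunum and Peyer levels of the same pig joined by lines (y axis, log2 relative to the 75th percentile of the array). All 18 lines fall, and the line of animal 71, drawn in red, ends highest for each gene.

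Part of that size came with the scaling. On unscaled log2 signals the differences were -1.83 ± 0.48 (SE) for ABP1, -1.72 ± 0.23 for FAXDC2 and -1.58 ± 0.24 for BTN3A2. The tissues still did not overlap: the ABP1 signal was 825 to 3764 in Peyer and 3822 to 7179 in Jejunum. That of FAXDC2 was 289 to 740 against 1023 to 1566, and that of BTN3A2 149 to 367 against 442 and above. For ABP1 the highest Peyer signal, from animal 71, came close to the lowest Jejunum signal.

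Genes of villus enterocytes were also lower in Peyer. Of 22 measured genes of the list, 11 passed the test as lower and none as higher, and the median difference was -1.12 against -0.12 over all named genes. Those that fell most were ALPI, the intestinal alkaline phosphatase, at -2.13, the fructose transporter SLC2A5 at -2.03, the glucose transporter SLC2A2 at -1.68 and the protease subunit MEP1B at -1.55 (limma with Benjamini-Hochberg adjustment, adjusted p of 0.00064, 6.7e-05, 0.00035 and 0.0047). The mean level of the list ran from 3.88 to 5.36 in Peyer and from 5.19 to 5.56 in Jejunum, and the 5.36 was that of animal 71. The gap between a member's difference and that of the list was -1.45 ± 0.58 (SD, n = 6) for ABP1, -1.34 ± 0.74 for FAXDC2 and -1.21 ± 0.48 for BTN3A2. The members were chosen among the largest falls, which favours such a gap, so it is a description alone. The part of villus cell content in the members' difference was not tested.

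Other cell markers moved between the same tissues. All 9 B cell genes measured were called higher in Peyer, with a median of 4.21, where 5.89% of named genes were called higher. Of 9 general epithelial genes 1 was called lower (CLDN7, a tight junction claudin, at the 2-fold limit, adjusted p = 0.0066), with a median of -0.94, and 3 were without the Peyer array of animal 71. Of 11 smooth muscle genes 7 were called lower, with a median of -1.42, but 1 was when animal 69 or animal 70 was left out. Of 6 genes of M cells and follicle epithelium 4 were called higher, GP2, an uptake receptor of M cells, most at 6.65 (adjusted p = 6.3e-07). Of the mast cell genes, a cell type that stores histamine, 0 of 4 were called in limma's test and 0 had an unadjusted p under 0.05. Of 9 secretory cell genes 3 were lower, of 4 crypt genes 1, of 8 hepatocyte genes 2 and of 5 adipocyte genes 2, with 1 adipocyte gene higher, and 2 of 4 spleen genes were higher. Their part in the members' differences was not tested.

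**Figure D3:**
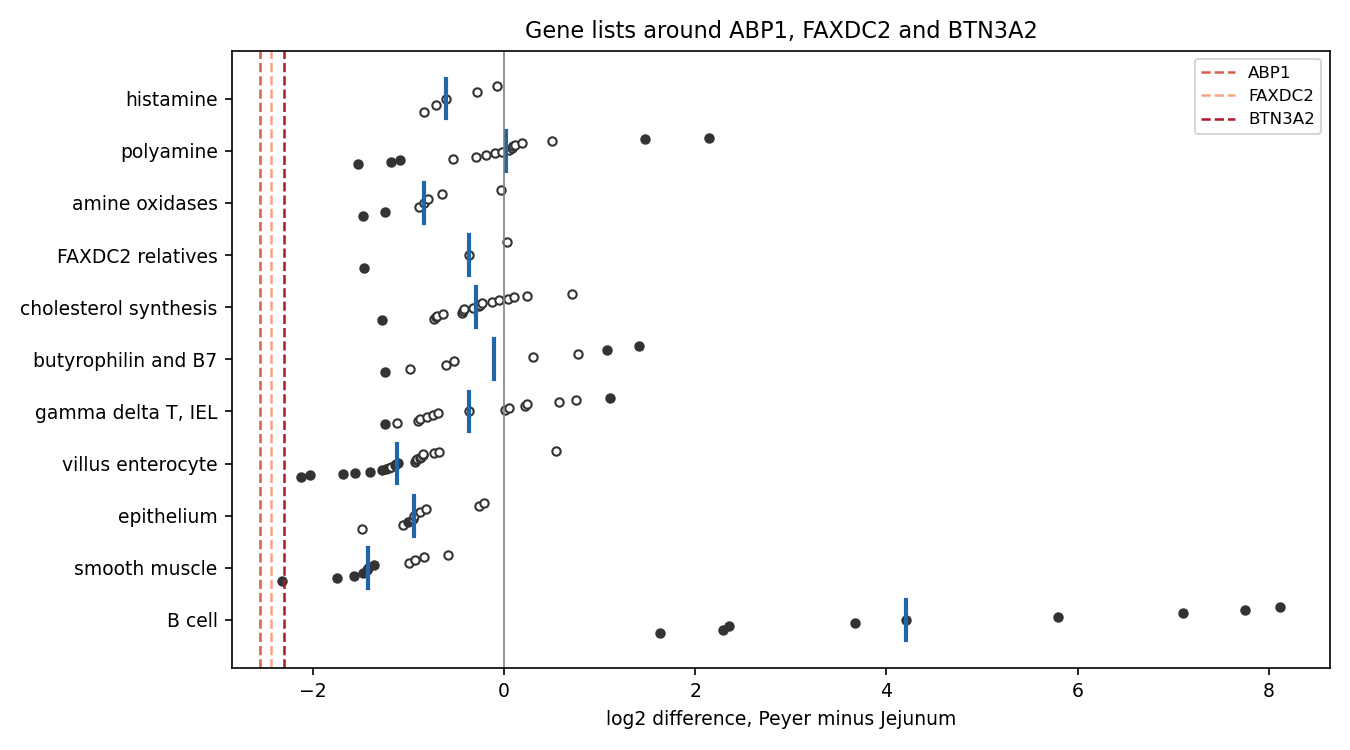
Difference between Peyer and Jejunum (x axis, log2) for the measured genes of 11 lists. Each point is a gene, filled where it passed the test at 2-fold, blue bars are list medians, and dashed lines mark the 3 members, which were chosen on this difference; the B cell genes lie to the right.

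Genes that make, break down or sense the substrates of diamine oxidase were mostly not called between the gut tissues, and those called went in both directions. Of 5 measured histamine genes none was called between Peyer and Jejunum in limma's test at 2-fold, though 3 had an unadjusted p under 0.05, and 0 or 1 was called under the alternatives. HDC, the enzyme that makes histamine, differed by -0.07 ± 0.24 (SE, adjusted p = 0.83). MAOB was at -0.83, the aldehyde dehydrogenase ALDH2 at -0.71 and the histamine N-methyltransferase HNMT at -0.61, all short of 2-fold. Of 16 polyamine genes 2 rose and 3 fell. Spermine oxidase SMOX was higher in Peyer by 2.14 ± 0.24 (adjusted p = 1.9e-06) and spermidine synthase SRM by 1.47 ± 0.24 (adjusted p = 0.00012). AGMAT, the agmatinase that forms putrescine, was lower at -1.52 and the arginase ARG1 at -1.18, and ARG1 lost its call without animal 70 (-0.97). Ornithine decarboxylase ODC1, which makes putrescine, was at 0.06 ± 0.16.

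Among the other amine oxidases, 2 of 7 measured genes were called lower in Peyer and none higher, with a median of -0.83. AOC3, a copper amine oxidase like ABP1, was at -1.47 ± 0.23 (adjusted p = 5.7e-05) and the flavin enzyme MAOA at -1.24 ± 0.22 (adjusted p = 0.00025). The lysyl oxidase LOXL2 was at -0.88 and MAOB at -0.83. Neither called gene shared the full order of tissues of ABP1, and AOC3 was highest in Liver at 4.53. MAOA was highest in Jejunum at 5.78 with Peyer next at 4.54, as for ABP1, but had Liver at 2.80 above Spleen at 0.99. ABP1 itself was at the edge of detection in Liver.

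Of the relatives of FAXDC2 only 3 were measured, MSMO1, CH25H and AGMO. AGMO, an ether lipid monooxygenase, was lower in Peyer at -1.46 ± 0.42 (adjusted p = 0.0091), while the sterol oxidase MSMO1 was at -0.37 and cholesterol 25-hydroxylase CH25H at 0.04. Of 18 genes of cholesterol synthesis 1 (5.6%) was called lower, against 7.22% of all named genes, with a median of -0.29 against -0.12. It was LSS at -1.27 (adjusted p = 0.00047), above background on 4 of 6 Peyer arrays. LSS lost its call with normexp (-0.84), the authors' deposited table (-0.54) and no scaling (-0.55), and where the test itself required 2-fold. Of the rest of the list, INSIG1 was at -0.73 and the regulator SCAP at 0.71.

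BTN3A2 was set beside 13 other tested probes whose description names a butyrophilin, a group chosen after the annotation was seen. Of these, 6 were called lower in Peyer and none higher, where 8.48% of all tested probes were called lower and 5.61% higher, and all 13 had a mean below that of Jejunum. Their differences ran from -1.54 to -0.85. All 13 also had their 2 highest means in Jejunum and Peyer, as BTN3A2 did. Most were above background on only 12 to 17 of the 24 arrays and passed the filter on dim probes through the gut, which favours that order. How many of all tested probes show either pattern was not counted. The butyrophilin probes share gene families and some share a gene, so they are not independent.

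**Figure D4:**
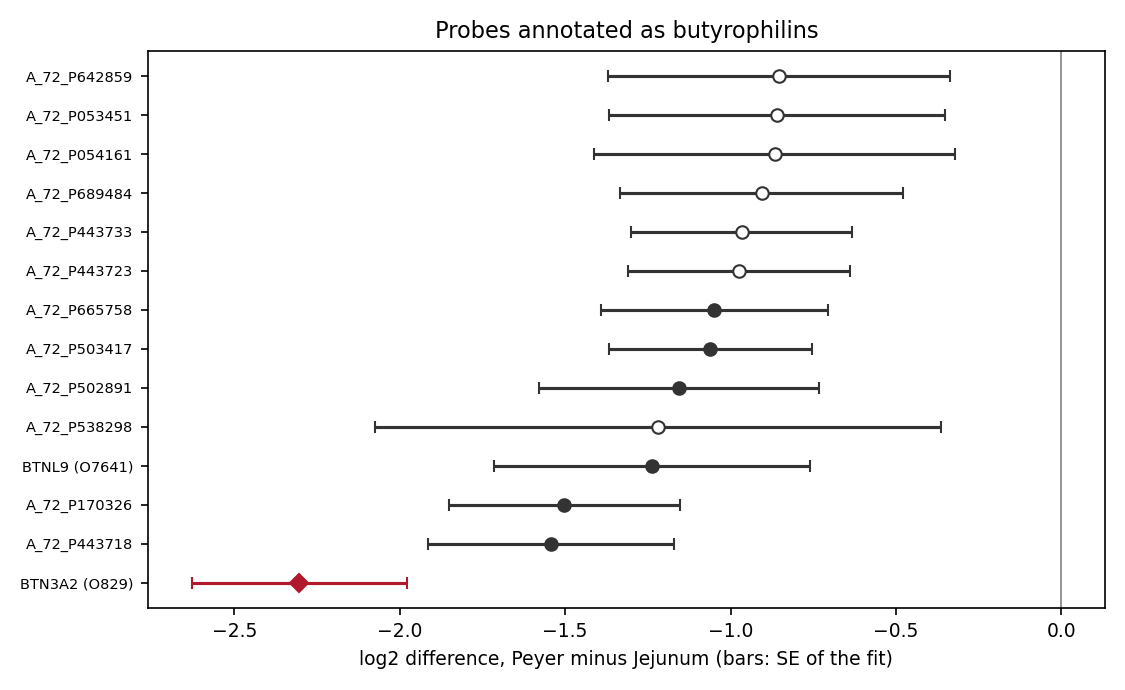
Difference between Peyer and Jejunum (x axis, log2, bars are the SE of the fit) for 14 probes described as butyrophilins. Filled points passed the test at 2-fold, and BTN3A2, which was chosen on this difference and not tested, is the red diamond; all lie below 0.

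Of the symbols in the fixed list of butyrophilins and B7 relatives, 8 were measured. BTNL9 was lower in Peyer at -1.24 ± 0.48 (adjusted p = 0.041), and it lost that call without any of animals 68, 69, 70 or 73 (adjusted p of 0.072 to 0.11). BTNL2, measured above background in the gut alone, was at -0.98. The T cell costimulator CD80 was higher at 1.42 (adjusted p = 6e-04) and PDCD1LG2, a ligand of the inhibitory receptor PD-1, at 1.08 (adjusted p = 0.0016). Both fell short of 2-fold with normexp background correction (offset 50), at 0.52 and 0.74, and PDCD1LG2 also without animal 70 or 73. So within this list 2 genes were higher, 1 was lower and 5 were not called.

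Of the genes of gamma delta and intraepithelial T cells, 6.7% were called higher and 6.7% lower in Peyer than in Jejunum. These shares were near the 5.89% and 7.22% of all named genes. Of 15 measured genes, 1 was higher (EOMES, a transcription factor of cytotoxic lymphocytes, at 1.11, and 0.89 without animal 70) and 1 lower (SOX13, a transcription factor of gamma delta T cells, at -1.25, adjusted p = 9.4e-05). Without the Peyer array of animal 71, 3 were called lower. Granzyme B, GZMB, was at -1.11 ± 0.49 (adjusted p = 0.068). A probe for the T cell receptor delta chain was at -0.97 ± 0.33 (adjusted p = 0.025) and one for the gamma chain at -0.62 ± 0.31 (adjusted p = 0.11). Both were lower in Peyer in 6 of 6 animals, short of 2-fold.

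The comparison of Spleen with Liver used no array of the choice and was tested. After scaling, ABP1 was higher in Spleen by 2.13 ± 0.42 (SE) in 6 of 6 animals (limma, adjusted p = 8.7e-05), and 20.7% of named genes were called in that direction. Before scaling, the ABP1 signal of animal 71 was lower in Spleen, at 14.8 against 15.9 in Liver. The gene was above background on 1 of 6 Liver and 5 of 6 Spleen arrays, and in animal 71 on neither, so that no fold is given and the size of its difference is uncertain. FAXDC2 was lower in Spleen, with a difference of -1.43 ± 0.34 (2.70-fold) in 6 of 6 animals (adjusted p = 0.00063), where 18% of named genes were called lower. BTN3A2 was above background in neither organ, so no fold is given. The ranges of the organs did not overlap after scaling for ABP1 and FAXDC2, as for 49.9% of named genes, so that a separation of these organs was common.

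The 2-fold calls of both genes were lost under other processing, and the cause was not tested. With normexp background correction, which adds an offset of 50 to each signal, the difference of ABP1 was 0.67 (adjusted p = 0.076). The ABP1 signal in Liver was 10.4 to 22.2. With values of the authors' deposited table the difference of ABP1 was 0.94 (adjusted p = 0.0069). That of FAXDC2 was -0.95 with normexp and -0.98 without scaling, and its adjusted p was 0.33 when the test itself required 2-fold. Within slides ABP1 was higher in Spleen by 1.75 to 2.57, and FAXDC2 was at -1.57 to -1.24. Both kept their direction on each slide.

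Lists around the members separated Spleen and Liver too. The villus list had a mean level of -4.00 to -1.75 in Spleen and -0.52 to 0.19 in Liver. The part of such cells in the ABP1 levels of these organs was not tested. Of 5 histamine genes 3 were lower in Spleen and none higher, led by MAOB at -6.39 and ALDH2 at -4.94. Of the amine oxidases 3 were lower, AOC3 most at -7.66, and 2 higher, LOXL2 at 2.42 among them. Beside FAXDC2, 17 of 18 genes of cholesterol synthesis were lower in Spleen, with a median of -3.35 against 0.10 over all named genes, and TM7SF2, a sterol reductase, was furthest at -7.78. Of the gamma delta and intraepithelial T cell genes 13 of 15 were higher in Spleen, while BTN3A2 was not above background there.

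The gut tissues were also compared with Liver and Spleen together, as the mean of Jejunum and Peyer minus the mean of the other organs. It uses the Jejunum and Peyer arrays of the choice, though not their difference, so its values are given without a test. FAXDC2, above background on all 24 arrays, was higher in the gut by 2.42 ± 0.24 (SE) in 6 of 6 animals, and 11.8% of named genes were called in this direction. Against Liver, its scaled level was 0.48 ± 0.34 (SE) higher in Peyer and 2.92 ± 0.34 higher in Jejunum. ABP1 and BTN3A2 also passed the filter on dim probes only through the gut arrays, where they are high. They were higher in the gut by 5.19 ± 0.29 and 5.68 ± 0.23 (SE), each in 6 of 6 animals. After scaling, every gut array lay above every other array for ABP1 and BTN3A2, as for 4.91% of named genes. FAXDC2 overlapped through Peyer and Liver after scaling but not before it. The value for BTN3A2 uses signals at background and depends on them: with normexp it was 1.98, and that of ABP1 3.60.

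The gut arrays and the Liver and Spleen arrays lay on different slides, 3 each, so organ and slide set cannot be told apart in this comparison. In the authors' deposited table the same difference was 0.06 for ABP1, 0.02 for FAXDC2 and -0.02 for BTN3A2. There, 99.4% of 42342 probes differed by less than 0.5 between the slide sets, against 50.4% in the scanner signals. The authors' deposited table therefore held almost no difference between the slide sets for nearly all probes, and the scanner signals alone carry the gut values given here.

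**Figure D5:**
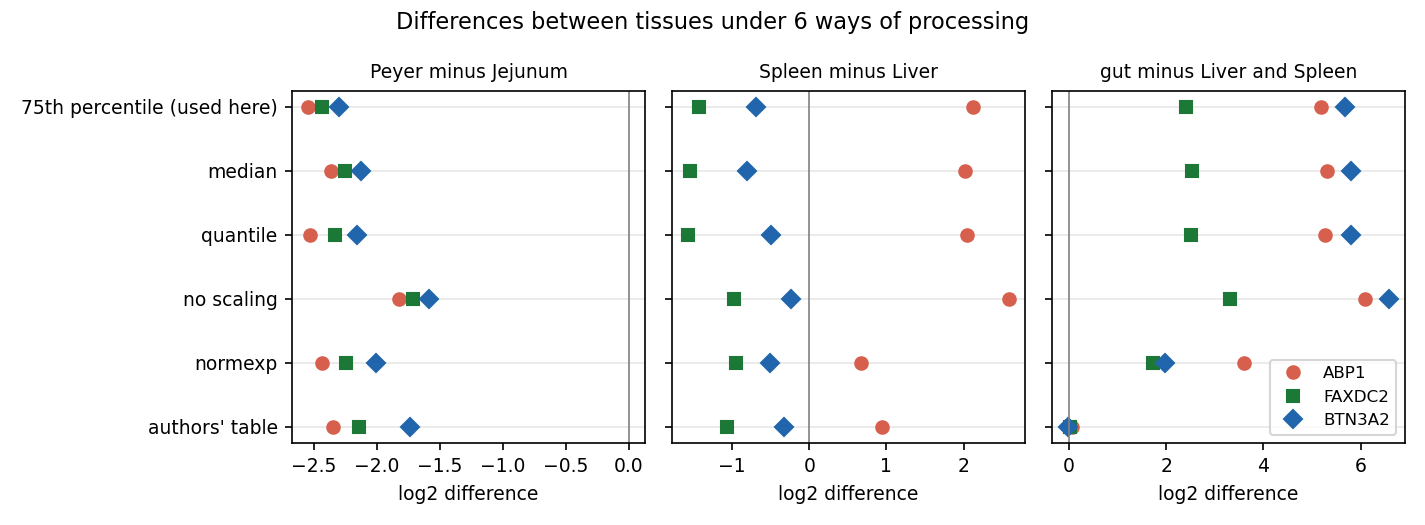
Differences between tissues (x axis, log2) for the 3 genes under 6 ways of processing the same arrays (y axis). Peyer stays below Jejunum for each gene under all 6, while the gut difference lies at 0 in the authors' table.

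Whether levels followed the individual pig was tested with its own term. In an F-test of animal beside tissue, 0 of 3 passed (limma, adjusted p of 0.68 for ABP1, 0.24 for FAXDC2 and 0.28 for BTN3A2), where 4.21% of named genes did. The unadjusted p was 0.52, 0.0495 and 0.065 in the same order, so 1 was under 0.05. After scaling, animal 75 lay below the tissue mean in all 4 tissues for each of the 3 genes, and animal 71 above it in 4 tissues for FAXDC2 and in 3 for ABP1 and BTN3A2. These values include BTN3A2 at background in Liver and Spleen, and ABP1 was above background on 1 of 6 Liver arrays. Before scaling, the ABP1 signal of animal 75 was above the tissue median, at 4981 against 4660 in Jejunum and 1324 against 1262 in Peyer.

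Within tissues, FAXDC2 and BTN3A2 deviated together, with r = 0.85 of the deviations from the tissue means over 24 arrays. It was 0.80 without the Peyer array of animal 71. On the Liver and Spleen arrays BTN3A2 was at background, so its deviations there do not measure the gene. ABP1 deviated with neither, at 0.36 with FAXDC2 and 0.27 with BTN3A2, and 0.06 and -0.04 without the Peyer array of animal 71. These arrays share animals, slides and scaling. The deviations of FAXDC2 and BTN3A2 had r = -0.85 and -0.80 with that of the array's own 75th percentile, which the scaling subtracts, against 0.03 for ABP1, and the part of this in their shared deviation was not tested. The unscaled FAXDC2 signals in Spleen ran from 43.3 to 65.0, while the percentile of those arrays ran from 275 to 1098.

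Over the 24 arrays, the named genes whose level followed ABP1 most were FRAT2 (r = 0.98), CYB561, SERPINB6, BTBD3 and the collagen receptor DDR1. For FAXDC2 they were C6ORF192 (r = 0.95), the actin-binding LIMA1, ITPKA, the RNA-binding RBM47 and the myosin MYO1D. For BTN3A2 they were the sulfotransferase CHST4 (r = 0.99), UNC5CL, C10ORF112, the brush border protocadherin CDHR2 and MRO. All 15 had r of at least 0.94, over points that are mostly set apart by tissue. Their differences between Peyer and Jejunum ran from -2.02 to -0.83. They were picked for likeness to the members over arrays that include those of the choice. That favours a lower level in Peyer, so these differences are a description alone. By deviations within tissues CHMP4B (r = 0.83) was the closest to ABP1, and CD244 was among the 3 closest. The closest were SLC35D1 (r = 0.94), FAM3A and SLC22A18 for FAXDC2, and OTUD7B (r = 0.93), MGAT4A and ND4L for BTN3A2. The deviations of BTN3A2 include its Liver and Spleen arrays, where it was at background.

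The genes next to 2 of the members in the RefSeq gene order did not reach 2-fold between the gut tissues. On either side of ABP1, NOS3 was at -0.33, KCNH2 at -0.60, TMEM176B at -0.42 and TMEM176A at -0.44 between Peyer and Jejunum. Beside FAXDC2, GEMIN5 was at 0.24, CNOT8 at 0.13, LARP1 at -0.91 and HAND1 at -0.96.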

How the data were processed

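Total RNA (200 ng, integrity number over 7.5) from 4 tissues of 6 pigs was labelled with Cy3 and hybridised to one-colour Agilent arrays, per the labels' protocols. The deposited scanner files hold the processed signal as intensity, made with Agilent Feature Extraction 10.10.1.1 per the submitters' processing notes, not normalized between arrays. The authors' deposited table holds log2 values of 44600 probes. Its 24 columns have the same sorted values (median 8.24), the submitters name limma with no version, and its centring between slide sets is not given.

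Signals were taken as log2 minus the 75th percentile of each array. Control spots (1319) and 136 probes with an outlier flag were left out, and probes had to be well above background throughout the 6 arrays of some tissue. A gene is its probe with the highest mean. Tissues were fitted with limma 3.58.1 (R 4.3.3, lmFit and eBayes) on 24 arrays, with p-values adjusted by Benjamini-Hochberg over 42650 probes. Calls were made at an adjusted p under 0.05 with at least 2-fold change. The code was tested on simulated data. The members, lists and tests were chosen with earlier results of these data known. Genes with a symbol are called named genes. Those given with values are the members, their neighbours in the ranking, the 5 genes with the most similar levels and 3 with the most similar deviations, and per list up to 4 by the difference of Peyer from Jejunum and up to 2 by that of Spleen from Liver. Some genes that this rule names are not reported here. The probes described as butyrophilins and as T cell receptor chains, and the neighbours in gene order, were chosen after the files were seen.

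The replicate numbers name animals, which pairs the samples: deviations from tissue means had a mean r of 0.17 over 36 pairs of arrays from the same animal, 26 of them over 0.1, and -0.034 over 180 other pairs. Slides 1 to 3 hold Liver and Spleen, and slides 4 to 6 hold Jejunum and Peyer. Alternatives changed the scaling, background correction, filter, arrays, blocks, weights and threshold. Normexp was run with an offset of 50, which makes differences between dim signals smaller.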

Additional observations from a re-analysis of the deposited data

How the results depend on the processing

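Peyer lay below Jejunum for all 3 genes under every alternative run, with log2 differences from -3.10 to -1.56 for ABP1, -3.15 to -1.45 for FAXDC2 and -2.93 to -1.33 for BTN3A2; the smallest were those of slide 5 (-1.56 for ABP1, -1.33 for BTN3A2). Between Spleen and Liver, ABP1 fell short of a call with normexp (0.67) and with the authors' deposited table (0.94), and FAXDC2 with normexp (-0.95), without scaling (-0.98, an alternative chosen after seeing the data) and under limma treat at 2-fold (-1.43, adjusted p = 0.33). In the authors' deposited table the gut difference was 0.064 for ABP1 and 0.015 for FAXDC2, and it was reversed for BTN3A2 (-0.016). Leaving out each animal in turn gave -2.84 to -2.34, -2.68 to -2.14 and -2.59 to -2.11 for Peyer minus Jejunum of ABP1, FAXDC2 and BTN3A2, 1.97 to 2.43 and -1.66 to -1.29 for Spleen minus Liver of ABP1 and FAXDC2, and 4.79 to 5.37, 2.32 to 2.48 and 5.61 to 5.83 for the gut difference. With the animal as a replicate block, the pairing left the differences as they were and changed no call of a member at 2-fold. In Spleen minus Liver limma's adjusted p was then 0.00019 for ABP1 and 2e-04 for FAXDC2. BTN3A2 was at background in both organs, so no p is given for it. Of all named genes 632 were called higher and 775 lower in Peyer. The lower count was 475 with the median of each array (842 higher), 572 with quantile normalization (713 higher), 81 without scaling (2600 higher), 450 with the authors' deposited table, 442 with probes above background on all 24 arrays and 4 with treat (111 higher). In Spleen minus Liver 2227 were higher, against 3595 without scaling, 1479 with normexp and 1421 with treat. In the gut 1264 were higher and 1347 lower, against 4135 and 498 without scaling, 0 and 0 in the authors' deposited table, 817 and 774 with treat, and 708 higher with probes above background on all 24 arrays. Counts of lists moved as well: over 19 alternatives 0 to 16 villus genes, 0 to 10 smooth muscle genes, 0 to 7 epithelial genes and 0 to 4 amine oxidases were lower in Peyer, and 4 to 9 B cell genes higher. Without scaling 2 villus genes and 1 smooth muscle gene were lower. Except where the alternative tests fewer probes or asks for more, the cause was not tested. ABP1 and BTN3A2 could not be fitted with probes above background on all 24 arrays, since Liver or Spleen signals at background limit both genes.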
